A study of Mus musculus with 4 samples.

Results

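Anterior neural and eye field homeobox genes were followed in RNA sequencing of the embryonic mouse brain with and without Gsdmd, the gene of the pore-forming protein gasdermin D. The 8 genes Six3, Six3os1, Six6, Rax, Vax1, Vax2, Otx1 and Otx2 were found by their symbols among the 26955 rows of the count table, and 6 of the 8 passed the filter on low counts that 15804 rows passed. They were chosen with their counts in these 4 libraries already known, so their differences between the groups are given as a description, without a p-value. The cKO group was GSDMDfl/fl;Nestin-Cre on a C57BL/6 background, in which Cre recombinase driven by the Nestin promoter acts in neural progenitor cells, and was represented by replicates 2 and 6. The control group was labelled WT and was represented by replicates 4 and 5, while the methods of the study name the controls Gsdmd fl/fl, floxed mice without Cre. All 4 libraries came from C57BL/6 embryos labelled embryonic day 13 and brain, whereas the study's methods give E13.5 and its text names the cortex or the forebrain. The sources used here do not say whether each library came from a separate embryo.

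SIX3 and SIX6 are homeodomain proteins of the sine oculis class, and both are known from the anterior neural plate, from which the forebrain and the eyes form. SIX3 keeps the anterior forebrain from taking a more posterior character, and in the mouse Six3 is needed for the formation of the telencephalon, the hypothalamus and the neuroretina. RAX marks the eye field, VAX1 and VAX2 act in the ventral forebrain and the ventral eye, and OTX1 and OTX2 are bicoid-type homeodomain proteins of the forebrain and midbrain. At midgestation Six3 is known from the ventral telencephalon and the hypothalamus, Otx2 from the diencephalon, the midbrain and the choroid plexus, and Otx1 from the dorsal telencephalon.

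The count table placed Six3 at chr17:85613608-85629302 and its opposite-strand transcript Six3os1 at chr17:85600651-85618398. Six6 lay at chr12:72939892-72944899, Vax1 at chr19:59166187-59170056, Vax2 at chr6:83711264-83738313, Otx1 at chr11:21994764-22002897 and Otx2 at chr14:48657679-48667644. The submitters' notes name the build mm9, but 6 of the 8 genes, all except Rax and Otx2, had the same start and end in the GENCODE annotation of GRCm38, and positions are given here on GRCm38. RefSeq start regions, 250 bases before to 50 bases after a transcript start on GRCm38.p6, were matched by symbol for Six3, Six3os1, Six6, Vax1 and Otx2, that is 5 of the 8 genes. None was matched for Rax, Vax2 and Otx1. The start regions of Six3, Vax1 and Six6, which were lower together in cKO, and of Otx2, which had the largest fold difference of the genes with counts in every library, read as follows from 5′ to 3′. Capitals mark CCAAT or its reverse complement ATTGG (the CCAAT box), TAATTA (a core bound by many homeodomain proteins) and TAATCC or its reverse complement GGATTA (a core bound by bicoid-type proteins such as OTX).

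Six3, chr17:85620584-85620883, + strand: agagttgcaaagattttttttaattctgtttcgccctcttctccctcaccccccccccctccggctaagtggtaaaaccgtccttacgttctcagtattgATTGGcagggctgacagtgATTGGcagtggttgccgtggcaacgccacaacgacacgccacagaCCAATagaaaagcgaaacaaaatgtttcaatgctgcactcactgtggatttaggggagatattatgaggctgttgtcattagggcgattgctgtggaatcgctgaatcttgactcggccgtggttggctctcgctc

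Vax1, chr19:59170348-59170647, − strand: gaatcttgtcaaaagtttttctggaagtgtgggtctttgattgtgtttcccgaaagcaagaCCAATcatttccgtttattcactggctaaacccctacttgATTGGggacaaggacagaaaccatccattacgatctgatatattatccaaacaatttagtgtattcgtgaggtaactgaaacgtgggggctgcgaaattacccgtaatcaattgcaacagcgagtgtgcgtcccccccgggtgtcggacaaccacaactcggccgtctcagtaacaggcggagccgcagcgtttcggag

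Six6, chr12:72939632-72939931, + strand: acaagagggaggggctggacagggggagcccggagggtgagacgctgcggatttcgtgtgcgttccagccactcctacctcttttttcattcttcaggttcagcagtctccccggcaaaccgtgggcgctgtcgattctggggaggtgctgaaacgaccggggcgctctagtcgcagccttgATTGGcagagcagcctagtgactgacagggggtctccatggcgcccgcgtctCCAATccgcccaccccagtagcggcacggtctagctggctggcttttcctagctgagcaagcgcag

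Otx2, chr14:48665060-48665359, − strand: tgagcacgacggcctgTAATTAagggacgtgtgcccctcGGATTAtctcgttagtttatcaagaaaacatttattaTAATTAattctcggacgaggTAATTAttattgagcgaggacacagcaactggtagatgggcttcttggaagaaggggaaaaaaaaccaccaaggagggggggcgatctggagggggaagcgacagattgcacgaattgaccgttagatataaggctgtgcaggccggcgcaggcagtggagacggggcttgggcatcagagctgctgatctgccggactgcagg

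On both strands, Six3 held 3 CCAAT boxes, the first 150 bases before the start, and 3.37% of the 32851 start regions of all genes held as many or more. Vax1 and Six6 held 2 each, as did 11.7% of start regions or more, and Six3os1 held 1, where 37.4% held at least 1. TAATTA, found in 5.29% of all start regions, occurred 3 times in the printed Otx2 region and once in another of the 4 Otx2 start regions, 141 bases before the start. The printed Otx2 region is the one of the 4 with the most marked cores and does not stand for the others. The printed Six3 and Otx2 regions lie inside the gene spans given above, not at their outer ends. TAATCC, found in 7.06%, occurred once, in the printed Otx2 region, and TGATAC, a core bound by SIX3 and its relatives that 5.46% held, occurred in none of the 8 start regions read. The CCAAT box was added to the search after the sequences had been seen, and these matches describe letters and not binding.

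The study also designed RT-PCR primers for Six3 and Otx2, and they show which part of each gene such an assay reads. It reports qPCR of genes screened as lower without GSDMD, but its text and legends do not name Six3 or Otx2 among them.

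Six3 forward primer: ccggaagagttgtccatgttc

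Six3 reverse primer: actcgtgtttgttgatggcct

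Otx2 forward primer: tgaggcctgccaagaagaag

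Otx2 reverse primer: gacaaggggtcagacagtgg

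The Six3 pair matched all 3 annotated Six3 transcripts and bounded 169 bases at chr17:85621462-85621630, inside 1 exon and within the coding span. The Otx2 pair matched 7 of 11 annotated Otx2 transcripts and bounded 172 bases at chr14:48659082-48659253, also inside 1 exon, within the coding span of 6 of them. Neither pair spanned an intron.

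Total counts lay between 16962553 and 18205945 in the 4 libraries, and levels are given as CPM, counts scaled to a common library size after TMM normalization. Gsdmd, the deleted gene, had 13 and 7 counts in cKO replicates 2 and 6 and 54 and 43 in WT replicates 4 and 5. Its log2 fold change of −2.34 was itself not called in edgeR's quasi-likelihood test (adjusted p = 0.0846). The WT replicates were not alike in every respect. Xist had 1 count in replicate 4 and 7640 in replicate 5, against 3 and 12 in cKO replicates 2 and 6. The Y-linked Ddx3y had 336 and 0 counts in WT replicates 4 and 5, and 278 and 251 in cKO. By these counts WT replicate 5 read as female, and WT replicate 4 and both cKO libraries as male. The part of sex in the differences between the groups was not tested. Ttr, a transthyretin transcript of the choroid plexus, had 10 and 2387 counts in WT replicates 4 and 5. The 17 listed genes of the dorsal telencephalon summed to 3644 to 4576 CPM in the 4 libraries, and the midbrain and hindbrain list to 18.3 to 29.5 CPM. Of the latter, En1 and En2 had no more than 1 count in any library. Barhl2 had 164 to 293 counts, Th 47 to 157 and Gbx2 23 to 103. With edgeR's quasi-likelihood test at an adjusted p under 0.05, 32 of the 15804 tested genes were called, 0.202%, and 31 of them, 0.196%, were lower in cKO. In the same test 1123 of the 15804, in both directions together, had an unadjusted p under 0.05. Both cKO libraries were below both WT libraries for 20.3% of tested genes and above both for 16.9%.

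Six3 and its opposite-strand transcript were both lower in cKO. Six3 stood at 26.1 and 17.5 CPM in cKO replicates 2 and 6 and at 47.3 and 58.2 CPM in WT replicates 4 and 5. The groups did not overlap, and the highest cKO library was below the lowest WT library. The means were 21.8 ± 6.09 CPM in cKO and 52.8 ± 7.71 CPM in WT (SD, n = 2 each), a 2.42-fold lower level in cKO and a log2 fold change of −1.27 with a standard error of 0.20. Six3os1, a noncoding transcript of the opposite strand, stood at 16.4 and 7.08 CPM in cKO and 40.7 and 39.7 CPM in WT. Its log2 fold change was −1.77 with a standard error of 0.31, and its cKO replicates were further apart than those of Six3.

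Six6, known from the optic vesicle, the hypothalamus and the pituitary, had 0 counts in both cKO libraries, 10 counts in WT replicate 4 and 49 in WT replicate 5. With 3 counts taken as the cKO group's floor, it lay 20.7-fold lower in cKO, and the 95% counting interval began at 16.3-fold. Its fitted log2 fold change of −7.94 depends on the prior count. The WT replicates themselves differed 5.09-fold, with a 95% counting interval from 2.55 to 11.3. Rax, the eye field homeobox gene, had 0 counts in 3 libraries and 3 counts in WT replicate 5, so no fold was computed.

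Vax1, which acts in the optic stalk and the ventral forebrain midline, stood at 9.64 and 5.24 CPM in cKO replicates 2 and 6 and at 17.5 and 16.9 CPM in WT replicates 4 and 5. The groups did not overlap, and the WT replicates lay close together. Its log2 fold change was −1.21 with a standard error of 0.26, a 2.32-fold lower mean. Vax2, its paralog of the ventral retina, had 2, 1, 1 and 3 counts in the same order of libraries. The WT to cKO ratio of the Vax2 counts was 1.41 with a 95% counting interval from 0.238 to 9.59, so no difference was detectable at this depth.

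The OTX paralogs parted. Otx2 stood at 3.20 and 1.56 CPM in cKO replicates 2 and 6 and at 15.6 and 14.0 CPM in WT replicates 4 and 5. Its means of 2.38 ± 1.16 and 14.8 ± 1.10 CPM (SD, n = 2 each) differed 6.23-fold, with a log2 fold change of −2.63 and a standard error of 0.29. Otx1 went the other way, with 77.7 and 84.9 CPM in cKO and 71.6 and 52.7 CPM in WT. Both cKO libraries of Otx1 were above both WT libraries, by a log2 fold change of 0.39 with a standard error of 0.15, and WT replicate 4 was nearer to cKO replicate 2 than to WT replicate 5.

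**Figure D1:**
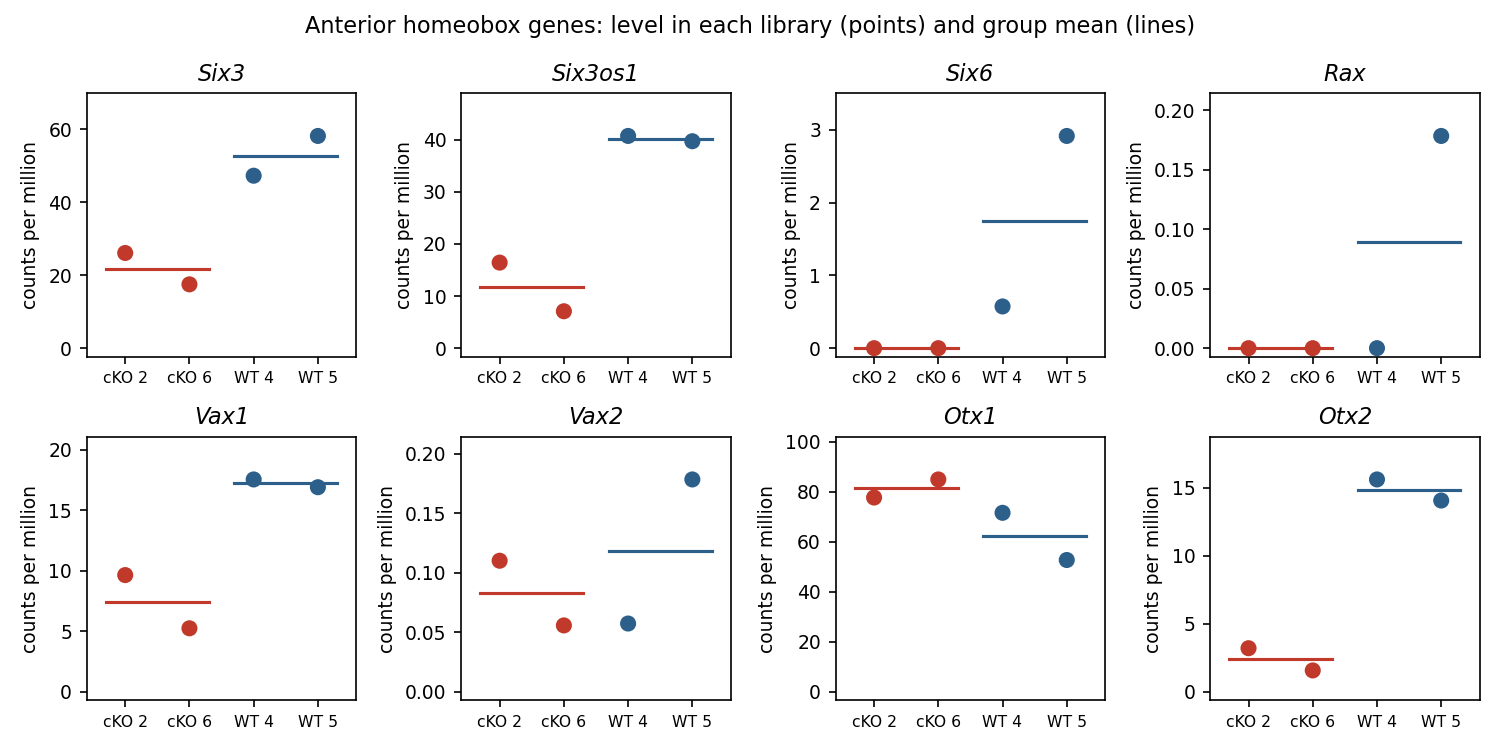
Level of each of the 8 genes in CPM (vertical axis, linear, each panel with its own scale) in the 2 cKO (red) and 2 WT (blue) libraries; points are libraries and lines are group means. Otx2 lies between 1.56 and 3.20 in cKO and between 14.0 and 15.6 in WT, while Otx1 is higher in cKO, and Rax and Vax2 rest on 3 counts or fewer in every library.

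Of the 6 genes that passed the filter, 5 had lower levels in cKO, each with both cKO libraries below both WT libraries. Otx1 was apart in the other direction. Among all tested genes, both cKO libraries were below both WT libraries for 20.3% and above both for 16.9%. Six6 passed the filter through its WT counts alone, with 0 counts in cKO. In edgeR's quasi-likelihood fit Otx2 was the only one of the 6 called, beside 0.202% of all tested genes. With library totals in place of TMM the same test called Six3 and Otx2, among 39 genes called in all. DESeq2 called Six3, Six6, Vax1 and Otx2, among 80 genes. The likelihood ratio test called these and Six3os1, among 148 genes, and limma-voom called Otx2, among 27. The genes were chosen on this contrast, so nothing is read from these counts. In a bulk sample fewer cells of a type and less RNA per cell cannot be told apart.

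The directions of the 6 tested genes were the same in every fit that tested them, and for all but Six6 the sizes moved mainly with the libraries left out. Without cKO replicate 2 the log2 fold change of Six3 was −1.59, its lowest value, and the fit without cKO replicate 6 gave its smallest size. That of Six3os1 moved from −2.50 to −1.28 with the same libraries, that of Vax1 from −1.71 to −0.82 and that of Otx2 from −3.24 to −2.20. Otx1 depended on the WT libraries instead, at 0.63 without WT replicate 4 and 0.19 without WT replicate 5. The Otx2 call was lost when WT replicate 5 was left out, an edgeR quasi-likelihood fit in which 0 genes were called and 694 had an unadjusted p under 0.05, and when no filter was applied. Without WT replicate 4 all 6 were called, among 292 genes.

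**Figure D2:**
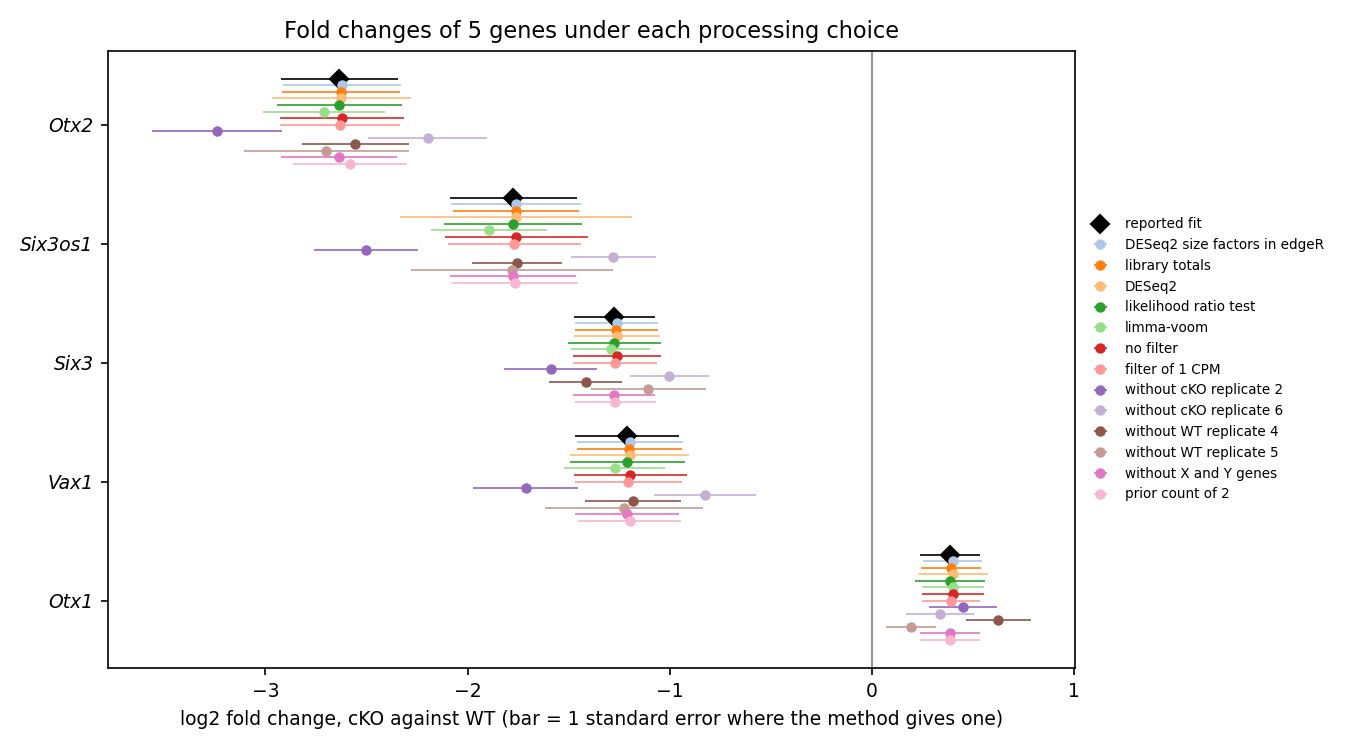
Log2 fold change of cKO against WT (horizontal axis, negative is lower in cKO) for 5 genes under each processing choice; diamonds are the fit reported, circles the alternatives and bars 1 standard error. Otx2, Six3os1, Six3 and Vax1 stay below 0 and Otx1 above 0, and the fits without cKO replicate 2 or 6 lie farthest from the diamonds for the first 4 genes. Six6 is not drawn because its fitted value depends on the prior count.

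Within cKO, replicate 6 was the lower library for all of the lowered genes that had counts there. The ratio of cKO replicate 2 to cKO replicate 6 was 1.49 for Six3, with a 95% counting interval from 1.29 to 1.73, and it was 1.84 for Vax1, 2.05 for Otx2 and 2.32 for Six3os1. For Otx1 it was 0.915. These intervals cover counting error only.

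Ratios between genes of 1 library do not depend on its scaling. Vax1 had 36.9 and 29.9 counts per 100 Six3 counts in cKO replicates 2 and 6 and 37.1 and 29.0 in WT replicates 4 and 5. The groups overlapped, and the folds between the group means were 2.32 for Vax1 and 2.42 for Six3. Six3os1 had 62.9 and 40.4 counts per 100 Six3 counts in cKO and 86.1 and 68.2 in WT, apart by less than the replicates of either group differed. Otx2 had 12.2 and 8.92 counts per 100 Six3 counts in cKO and 33.0 and 24.1 in WT, so Otx2 was lower in cKO also relative to Six3. Per 100 Otx1 counts, Otx2 had 4.11 and 1.84 in cKO and 21.8 and 26.7 in WT. Six6 had 1.21 and 5.01 counts per 100 Six3 counts in WT, while the 0 counts in cKO replicates 2 and 6 allowed up to 0.633 and 0.955, taken as 3 counts.

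**Figure D3:**
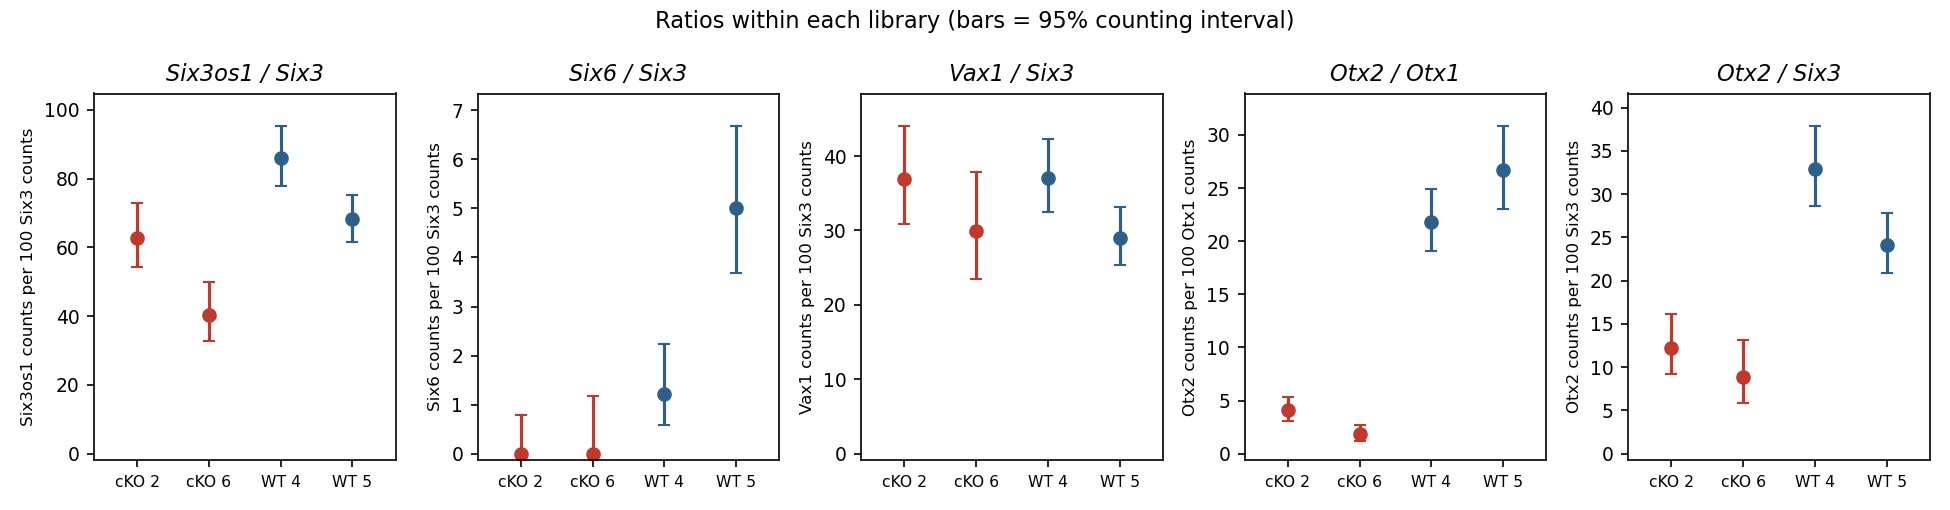
Counts of one gene per 100 counts of another in each library (vertical axes, linear), with 95% counting intervals, in cKO (red) and WT (blue). Vax1 per 100 Six3 spans 29.0 to 37.1 with the groups overlapping, and Otx2 per 100 Otx1 is 1.84 and 4.11 in cKO against 21.8 and 26.7 in WT.

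Levels of different genes can be set beside each other only per length of annotated exons. In WT, Vax1 had 15.4 ± 0.41 CPM per kb over its 1117 bases of exons, Otx1 had 11.5 ± 2.46 over 5422 bases and Six3 had 9.69 ± 1.42 over 5446 bases (SD, n = 2). Otx1 and Six3 did not differ beyond their spread, with 9.72 to 13.2 against 8.69 to 10.7 CPM per kb. Otx2 at 3.51 ± 0.26 and Six3os1 at 3.38 ± 0.06 CPM per kb overlapped too, followed by Six6 at 0.435, Vax2 at 0.095 and Rax at 0.015. In cKO, Otx1 was first with 15.0 ± 0.94 CPM per kb, ahead of Vax1 with 6.66 ± 2.79 and Six3 with 4.00 ± 1.12, which overlapped. Six3os1 at 0.989 ± 0.555 and Otx2 at 0.563 ± 0.274 CPM per kb overlapped as well. The table gives no exon lengths, so those of GENCODE were used, and the first place of Vax1 in WT rests on its short annotated length.

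The sources used here do not give HTSeq's strand setting. Reads from both strands of a shared exon could then not be told apart, and the neighbours were read too. The spans of Six3 and Six3os1 overlapped by 4791 bases, but their exons by 106 bases, 1.95% of the Six3 exons. The summed counts of the pair gave a log2 fold change of −1.47. Gm28528, an antisense transcript sharing 168 exon bases with Six3, had 7, 3, 16 and 6 counts in cKO replicates 2 and 6 and WT replicates 4 and 5. At Six6, the opposite-strand gene 4930447C04Rik shared 192 exon bases, 4.79% of the Six6 exons, and had 12, 6, 26 and 30 counts in the same order. Its log2 fold change of −1.70 with a standard error of 0.46 missed the threshold in edgeR's quasi-likelihood fit (adjusted p = 0.389). Otx2os1, the noncoding transcript opposite Otx2, had 0 and 0 counts in cKO and 8 and 4 in WT, at least 4.22-fold lower in cKO by the same floor. The longest run of identical bases between transcripts of paralogs was 20 for Six3 and Six6, 18 for Otx1 and Otx2 and 23 for Vax1 and Vax2.

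**Figure D4:**
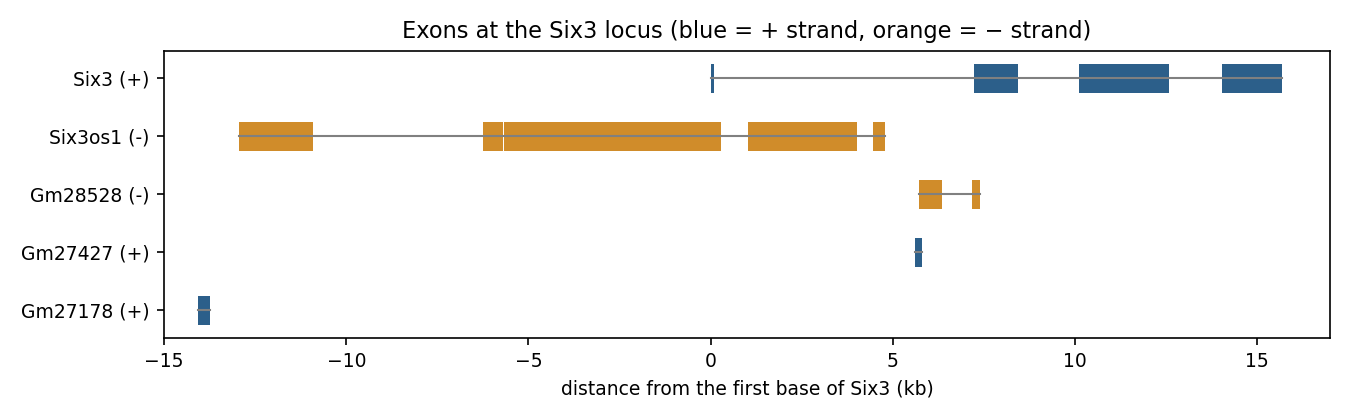
Annotated exons (boxes) at the Six3 locus by distance from the first base of Six3 in kb, with genes of the + strand in blue and of the − strand in orange. Six3 and Six3os1 are transcribed in opposite directions and their exons share 106 bases, at the first annotated exon of Six3.

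By the root mean square difference of centred log2 CPM over the 4 libraries, the gene nearest to Six3 among 12441 expressed genes was Zfhx3, a zinc-finger homeobox gene, at 0.061, followed by Fmo1, Ecel1, Clybl and the netrin gene Ntn1 at up to 0.12. Zfhx3 stood at 23.9 and 15.7 CPM in cKO and 41.5 and 47.7 CPM in WT. Among the 6 tested genes Six3 was nearest to Vax1, at 0.16. The genes nearest to Otx2 were Calcr, the calcitonin receptor gene, at 0.22, then Gsdmd itself at 0.26, Sulf1 at 0.28, Gsx1 at 0.31 and Nkx2-1, a homeobox gene of the hypothalamus and ventral telencephalon, at 0.31. Those nearest to Otx1 were E2f7 at 0.017, Fdps, Nrip3, AC123720.1 and AC156802.1. The distance between Otx1 and Otx2 was 1.59.

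No relative or cofactor of Six3 passed the threshold in edgeR's quasi-likelihood test. Of 15 tested genes of that list 0 were called in either direction, with a median log2 fold change of 0.03 beside −0.01 over all tested genes. Tle4, a Groucho-type corepressor, had a log2 fold change of −0.62 (adjusted p = 0.170) in edgeR's quasi-likelihood test, and Six2 had −1.52 (adjusted p = 0.663) on 3 to 14 counts. Eya3 and Eya4, coactivators of the sine oculis class, had 0.48 and 0.61 (adjusted p = 0.289 and 0.629). At an unadjusted p under 0.05, 2 of the 15 were lower and 2 higher, and DESeq2, edgeR's likelihood ratio test and limma-voom called 0, 1 and 0 of them.

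The other eye genes gave no call either, although some stood low in cKO. Among 14 tested eye field and optic vesicle transcription factors 0 were called, 4 were lower and 1 higher at an unadjusted p under 0.05, and the median was −0.06. DESeq2 called 1 of them, the likelihood ratio test 2 and limma-voom 0. Mab21l2, known from the optic cup, had 5, 4, 15 and 28 counts (log2 fold change −2.30, adjusted p = 0.322 in edgeR's test). Zic2 had −0.75 (adjusted p = 0.0846), Sox2 had −0.30 and Lhx2, which is also a cortical gene, had 0.44 (adjusted p = 0.663 and 0.618). Of 7 tested genes of differentiated retina, pigment epithelium and lens 0 were called by any of the 4 tools or had an unadjusted p under 0.05, and the median was 0.08. Bfsp1, Cryab, Crybb3 and Rlbp1 all had an adjusted p of at least 0.794, and Tyr, of the pigment epithelium, had 0, 0, 0 and 3 counts, as Rax did. The summed level of this list was 117 to 132 CPM in the 4 libraries, most of it Rlbp1.

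Hmx2, Hmx3 and Bsx of the hypothalamus fell in cKO. Of 16 tested genes of the hypothalamus and preoptic area, 3 fell and 0 rose, where 0.196% of all tested genes were called lower, and 13 were not called. The list was chosen with earlier results of these data known, so its share of called genes is a description only. The median log2 fold change was −1.61, and at an unadjusted p under 0.05, 11 were lower and 1, Lhx9, was higher. That threshold was met by 1123 of all 15804 tested genes. DESeq2 called 6 of the 16 and the likelihood ratio test 8, all lower, and voom called 3, beside 80, 148 and 27 over all genes. Hmx2, a homeobox gene of the hypothalamus, had 0, 0, 52 and 48 counts, at least 35.1-fold lower in cKO with 3 counts as the group's floor (adjusted p = 0.00815 in edgeR's quasi-likelihood test). Hmx3 had 1, 0, 41 and 44 counts (adjusted p = 0.0101) and Bsx had 0, 2, 56 and 57 (adjusted p = 0.00922). Nkx2-1 stood at 48.3 and 17.4 CPM in cKO and 125 and 147 CPM in WT, a log2 fold change of −2.05 that missed the threshold (adjusted p = 0.0959). The summed level of the list was 456 and 397 CPM in cKO and 535 and 598 CPM in WT, of which 306 to 326 CPM was Arnt2. The part of this list in the lower Six3, Six6, Vax1 and Otx2 levels was not tested. Without WT replicate 5, or without a filter, 0 of these genes were called.

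Fgf15, Shh and Fgf17, signals of the anterior midline, also fell. Of 16 tested genes of anterior midline signals and their antagonists 3 fell and 0 rose, where 0.196% of all tested genes were called lower, and 3 were above 0. The median was −0.37. Fgf15, a fibroblast growth factor of forebrain midline domains, stood at 8.26 and 10.2 CPM in cKO and 39.6 and 36.7 CPM in WT (log2 fold change −2.05, adjusted p = 0.00228 in edgeR's quasi-likelihood test). Shh, the ventral midline signal that SIX3 is known to act on in the mouse forebrain, stood at 2.75 and 2.12 CPM in cKO and 7.91 and 9.05 CPM in WT (−1.80, adjusted p = 0.0228). Fgf17, a signal of the anterior midline, had 18, 31, 122 and 92 counts (−2.19, adjusted p = 0.0359), and Ptch1, the SHH receptor and target, had −0.67 (adjusted p = 0.322). The summed level of the list, 385 to 409 CPM in cKO and 407 to 477 CPM in WT, did not separate the groups. Of this sum 207 to 287 CPM was Sfrp1. Both cKO libraries were below both WT libraries for 10 of the 16 genes and above both for 0. The shares of all tested genes were 20.3% and 16.9%. This list too was chosen with earlier results of these data known, so its shares are a description only. Without WT replicate 5 none of the 3 was called, and without a filter 1 was.

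Genes of the ventral telencephalon, where Six3 and Vax1 are known to be expressed, were mostly below 0 but not called. All 20 were tested, 0 were called, 19 were below 0 and the median was −0.50. At an unadjusted p under 0.05, 10 were lower, and 2, 3 and 0 were called by DESeq2, the likelihood ratio test and voom. Dlx2, Dlx5 and Lhx8 had log2 fold changes of −0.85, −0.73 and −1.67 (adjusted p = 0.120, 0.476 and 0.124 in edgeR's test). The summed level was 1060 and 743 CPM in cKO replicates 2 and 6 and 1265 and 1462 CPM in WT, so cKO replicate 6 was the lowest library here as it was for Six3, Six3os1, Vax1 and Otx2. The part of this difference in the levels of those genes was not tested.

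The choroid plexus, where Otx2 is known to be expressed, varied between the WT libraries. The list of choroid plexus and cortical hem genes summed to 42.0 CPM in WT replicate 4 and 214 CPM in WT replicate 5, against 33.2 and 47.6 CPM in cKO. Otx2 stood at 15.6 CPM in WT replicate 4 and 14.0 CPM in WT replicate 5, and its log2 fold change without WT replicate 5 was −2.70. Of 14 tested genes of the list 0 were called, 4 were lower at an unadjusted p under 0.05, and 0, 1 and 0 were called by the same 3 tools. Their median was −0.70, and Ttr, Kcne2, Clic6 and Aqp1 had their highest count in WT replicate 5 (adjusted p from 0.350 to 0.695 in edgeR's test). Six6, unlike Otx2, was higher in WT replicate 5 than in WT replicate 4, at 49 against 10 counts. Most genes of the hypothalamus list also had a higher CPM in WT replicate 5, with Hmx2, Gsx1, Ghrh and Dbx1 lower there. Otp had 433 against 114 counts, Trh 54 against 17 and Sox14 34 against 10, while Hmx2 had 48 against 52 and Bsx 57 against 56. The part of choroid plexus or hypothalamus genes in the Six6 gap was not tested.

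Most dorsal genes had values above 0, as Otx1 did, but none was called. Of 17 tested genes of the dorsal telencephalon 0 were called, 15 were above 0 and the median was 0.17. At an unadjusted p under 0.05, 4 were higher and 1 was lower, and 0, 1 and 0 were called by DESeq2, the likelihood ratio test and voom, the 1 as lower. The lower gene at that threshold was Tle4, with the smallest p of the list, at −0.62 (adjusted p = 0.170 in edgeR's test). Emx2, a homeobox gene of the cortical primordium, had 0.49 (adjusted p = 0.463 in edgeR's test), and Eomes, of intermediate progenitors, had 0.44 (adjusted p = 0.524). The summed level was 3936 and 4576 CPM in cKO and 3898 and 3644 CPM in WT, in the same order of libraries as Otx1, and its part in the Otx1 level was not tested. Of 3 tested midbrain and hindbrain genes 0 were called, 2 were lower at an unadjusted p under 0.05, and those tools called 0, 1 and 0, with Gbx2 at −1.53, Th at −1.06 and Barhl2 at 0.42 (adjusted p = 0.221, 0.475 and 0.717).

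**Figure D5:**
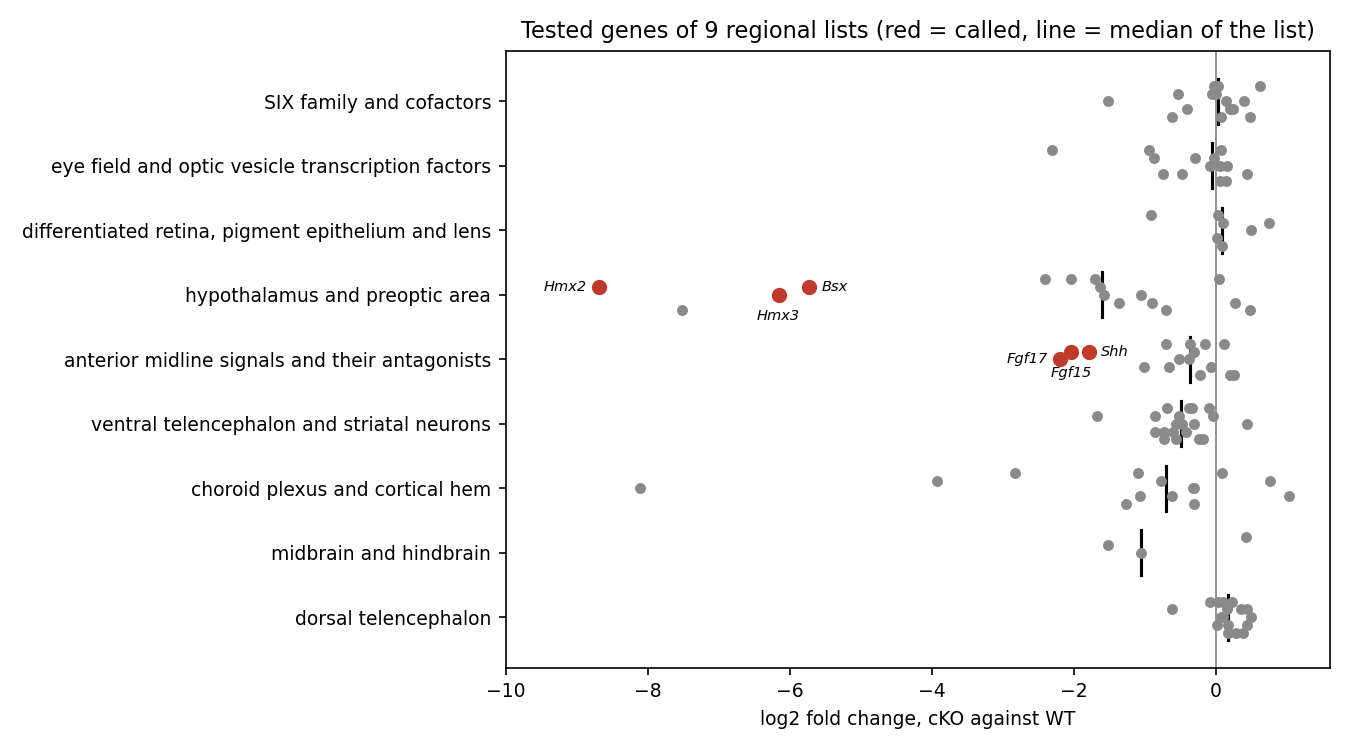
Log2 fold change of cKO against WT (horizontal axis) for each tested gene of 9 lists (rows), with genes called by edgeR's quasi-likelihood test in red and the median of each list as a black line. The called genes are Hmx2, Hmx3 and Bsx of the hypothalamus list and Fgf15, Fgf17 and Shh of the anterior midline list, and values left of −5 belong to genes with few or no counts in cKO and depend on the prior count, apart from Ttr, whose high count is that of WT replicate 5.

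Over all 9 lists, 118 of 169 genes were tested, 6 fell and 0 rose, where 0.196% of all tested genes were called lower, and the median log2 fold change was −0.31. Both cKO libraries were below both WT libraries for 52 of the 118 and above both for 14, where the shares of all tested genes were 20.3% and 16.9%. Since the lists were chosen with earlier results of these data known, nothing is read from these shares.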

How the data were processed

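The authors deposited 1 table for 4 mouse libraries of total RNA, with whole-number read counts per gene that were not normalized. Per the submitters' notes, reads were aligned with TopHat2 2.0.12 and Bowtie2 2.2.3 to mm9 and counted with HTSeq 0.6.0, with annotation and strand setting not given in the sources used here. Besides counts, the deposited table holds size-factor normalized signal means, a cKO to WT ratio, the log2 of that ratio and p-values, which are the authors' own comparison and were not used. The series description speaks of triplicates, and 2 libraries per group were analysed here.

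Groups were compared on these counts with edgeR 4.0.16 in R 4.3.3 (filterByExpr, TMM, glmQLFit and glmQLFTest, prior count 0.125, no covariate), and p-values were adjusted by Benjamini-Hochberg over all 15804 genes. Standard errors were obtained as the absolute log2 fold change over the root of F. With 2 libraries per group the p-values measure the spread between these libraries, which may be technical. The 8 genes and the 9 lists were chosen with earlier results of these data known. Named genes were all 8, up to 4 of each list by smallest p, rows overlapping or starting within 50 kb, and the 5 genes nearest to Six3, Otx2 and Otx1 in pattern with at least 1 CPM, without predicted or sex-linked genes. Alternatives were DESeq2 1.42.0 and its size factors, edgeR's likelihood ratio test, limma-voom (limma 3.58.1), library totals, no filter, a filter of 1 CPM, a prior count of 2, no X and Y genes, and leaving out each library. Floors are 3 counts and intervals are exact at 95%, and both cover counting error only. Exon lengths came from GENCODE and start regions from RefSeq, both on GRCm38. The fit was tested on simulated data with known changes. Of the 169 listed genes, 160 were analysed here, without Crx, Hesx1 and Rpe65 among others, and values of 1 listed gene are not reported.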

Additional observations from a re-analysis of the deposited data

How the results depend on the processing

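No direction reversed among Six3, Six3os1, Six6, Vax1, Otx1 and Otx2 under any of the alternatives run. Over all genes, DESeq2 called 80, the likelihood ratio test 148 and the fit without a filter 8, against 32. Among the listed pathway genes these counts were 12, 19 and 1, against 6. When each library was left out in turn, 0 to 292 genes and 0 to 38 listed genes were called. The lone library is then assumed to vary like the other group. Without WT replicate 5 the count was 0, and it was 158 without cKO replicate 6, 260 without cKO replicate 2 and 292 without WT replicate 4.

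The log2 fold change of Six6 was −5.57 by limma-voom and −4.02 with a prior count of 2, since both cKO libraries had 0 counts. With each library left out, log2 fold changes ranged from −2.50 to −1.28 for Six3os1, from −1.71 to −0.82 for Vax1, from 0.19 to 0.63 for Otx1 and from −3.24 to −2.20 for Otx2. Six6 was not tested without WT replicate 5 or with a filter of 1 CPM. The cause of these changes was not tested. No paired analysis was possible because the groups share no replicate number. Depth limits Rax and Vax2, which had 3 counts or fewer in every library.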
